A study of Mus musculus with 4 samples.

Results

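The CC chemokine ligands are described here as 10 mouse genes, Ccl2, Ccl5, Ccl6, Ccl7, Ccl8, Ccl9, Ccl11, Ccl20, Ccl25 and Ccl28, selected by gene symbol. The list was chosen with earlier results of these data known, so counts over it are not those of a list blind to the values. The genes were read by 15 probe sets with 1 gene symbol each, of 45101 probe sets in all, and are 10 of 18193 genes on the array. Primary epithelial cells of the mouse intestine, grown from isolated crypts on fibronectin (10 µg/ml) in medium with 2.5% serum and insulin, were either left untreated or stimulated with IL-17A at 50 ng/ml, FGF2 at 5 ng/ml, or IL-17A plus FGF2 at those doses. The stimulations lasted 6 h, and the time for which untreated cells were kept, the strain and the number of animals were not given in the sources used here. Each of the 4 groups had 1 Affymetrix array, so the differences below have no replicate check and no p-value.

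Chemokines are small secreted proteins that form gradients and steer leukocytes through G protein-coupled receptors. The CC family is named for a pair of adjacent cysteines, and its receptors are called CCR. In the intestine some members recruit monocytes and eosinophils to inflamed tissue, while others, such as CCL20, CCL25 and CCL28, are products of the epithelium that draw CCR6-, CCR9- and CCR10-bearing lymphocytes to the mucosa.

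Values are MAS5 signals, in arbitrary units on a scale that allows a probe set to be compared between arrays but not with another probe set. A floor was set at the median of all signals, 89.8, and a gene is called measured where its brightest probe set by mean log2 signal was over the floor on at least 1 array. Of the 10 genes, 9 were measured and 7 were over the floor on all 4 arrays. Ccl20 was over it on the IL-17A array only, so it entered the measured genes through the array on which it was high, and Ccl5 was under it throughout. Of the 15 probe sets, 10 were over the floor on all arrays, 2 on some and 3 on none. As a yardstick, probe sets of the same gene had log2 ratios between arrays with a within-gene SD of 0.21 to 0.25 (4676 genes), which measures disagreement between probe sets and not between cultures.

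The cultures were checked against cell type markers. All 10 epithelial markers, such as Epcam and Cdh1, were over the floor on every array, with summed signals from 142300 to 150400. Fibroblast markers (10 of 10), endothelial markers (8 of 8) and macrophage and monocyte markers (10 of 12) were also over the floor on every array, whereas of 10 T and NK cell markers with a probe set Cd8a alone reached it and Cd3d, Cd3e and Cd3g did not. B cell and eosinophil markers reached it on no array (0 of 4 and 0 of 3 with a probe set), and among them Siglecf was listed at a log2 signal of 0 on the untreated array. In such a bulk sample fewer cells of a type and less RNA per cell cannot be told apart, and the cell that made each chemokine transcript was not measured.

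**Figure D1:**
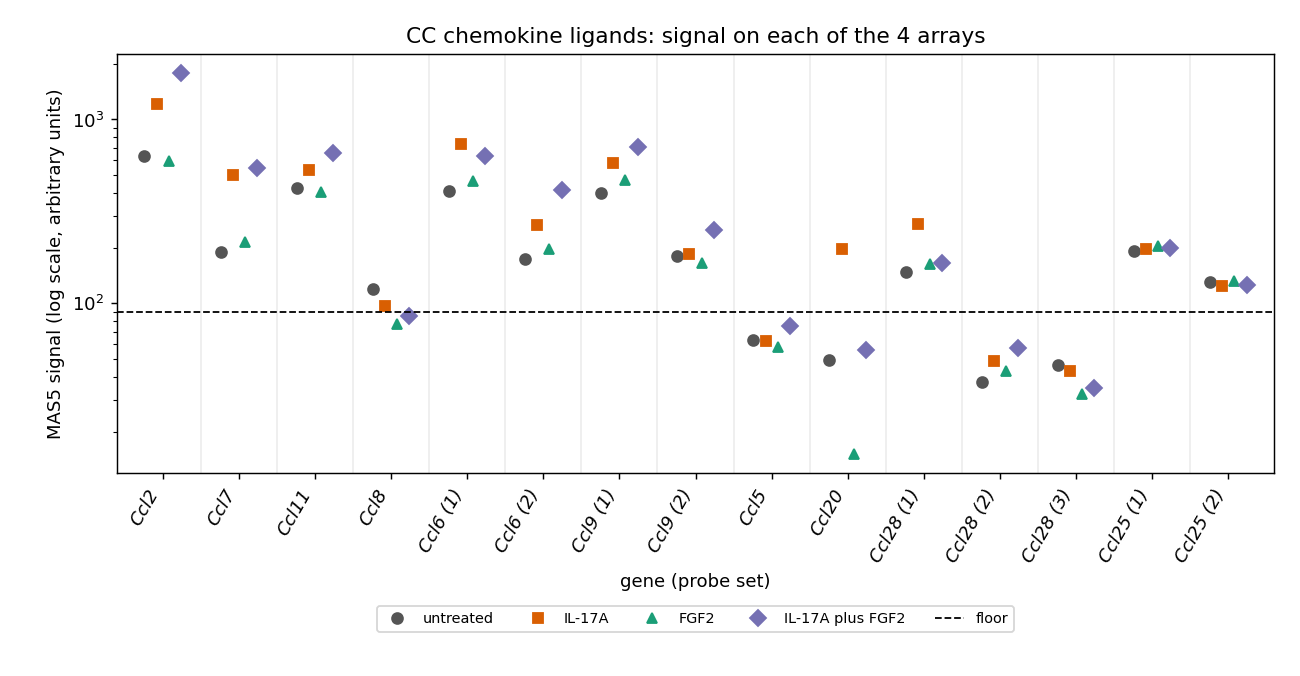
MAS5 signal (log axis, arbitrary units) of each of the 15 probe sets of the CC chemokine ligands on the 4 arrays; numbers in brackets mark different probe sets of a gene, brightest first, and the dashed line is the floor of 89.8. Ccl2 and Ccl7 are higher on both arrays with IL-17A (1216 and 1786 for Ccl2, 496.8 and 543.4 for Ccl7), while Ccl20 and the brightest Ccl28 probe set stand apart on the IL-17A array alone (196.8 and 268.9).

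Ccl2 and Ccl7, ligands of the monocyte receptor CCR2, were higher on both arrays that had IL-17A. Ccl2 had a signal of 629.1 in untreated cells, 1216 with IL-17A, 597 with FGF2 and 1786 with both. The arrays with IL-17A were thus the high ones, the combined array stood highest, and FGF2 alone was close to untreated. IL-17A alone was 1.93-fold over untreated cells, and the combination was 2.84-fold over untreated cells, 2.99-fold over FGF2 alone and 1.47-fold over IL-17A alone. FGF2 alone was 1.05-fold below untreated cells.

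Ccl7 had a signal of 189.1 in untreated cells, 496.8 with IL-17A, 215.6 with FGF2 and 543.4 with the combination. Its values fell into a low pair without IL-17A and a high pair with it. The IL-17A array was 2.63-fold over untreated cells and the combined array 2.52-fold over FGF2 alone, pairs that share no array. With FGF2 present or absent the level differed less, by 1.14-fold over untreated cells and by 1.09-fold over IL-17A alone. Among 12258 measured genes Ccl7 had the 23rd highest ratio of IL-17A to untreated, and in the pair with FGF2 Ccl2 was 18th and Ccl7 26th.

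Ccl11, an eosinophil attractant that binds CCR3, had signals of 425.8, 527.9, 401.9 and 655.8 in that order (untreated, IL-17A, FGF2, both), which is kept from here on. Both arrays with IL-17A were above both without it, by smaller steps than for Ccl2: 1.24-fold for IL-17A over untreated cells and 1.63-fold for the combination over FGF2 alone. Ccl8, known as a monocyte chemoattractant protein encoded beside these genes, went the other way. Its signals were 120.2, 96.2, 77.3 and 84.9, highest in untreated cells and under the floor on both arrays with FGF2, so the FGF2 array was at least 1.34-fold below untreated cells. All 4 values lay close to the floor.

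Ccl6 and Ccl9, neighbouring genes whose products act on the myeloid receptor CCR1, were each read by 2 probe sets that were over the floor on all arrays. The brighter probe set of Ccl6 had signals of 409.7, 738.4, 461.7 and 631.8, 1.80-fold over untreated cells with IL-17A and 1.54-fold with both. Its other probe set, which can detect related transcripts, had 175, 268.2, 197.4 and 414.8. Both probe sets were higher with IL-17A than without it. They disagreed on the combination, which was 1.17-fold below IL-17A alone in the first and 1.55-fold above it in the second.

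Ccl9 had signals of 399.5, 576.2, 470.2 and 707.8 in its brighter probe set. In its other probe set they were 181.8, 186, 165.6 and 250.1. The combined array was the highest in both, 1.77- and 1.38-fold over untreated cells, while IL-17A alone was 1.44-fold over untreated cells in the first and 1.02-fold in the second. Ccl5, the T cell and monocyte attractant RANTES, had signals of 63.1, 62.3, 58.1 and 75.7, all under the floor, so no fold is given.

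The 250 bases before the start site (GRCm38.p6) are shown for Ccl6, Ccl9, Ccl20 and Ccl28, all highest on an array with IL-17A. Ccl6 and Ccl9 are neighbours that were higher in their brighter probe sets with IL-17A, and Ccl20 and Ccl28 stood apart on the IL-17A array. Ccl2, Ccl7 and Ccl11 had no entry among the promoter sequences used here and were not searched. Of the 10 genes, 6 matched the promoter table. Each is written 5′ to 3′ on the gene's strand, with matches to the motifs described next in capitals. Ccl20 lies at chr1:83116516-83116765 (plus strand), Ccl28 at chr13:119623569-119623818 (plus), Ccl6 at chr11:83593088-83593337 (minus) and Ccl9 at chr11:83578637-83578886 (minus).
Ccl20: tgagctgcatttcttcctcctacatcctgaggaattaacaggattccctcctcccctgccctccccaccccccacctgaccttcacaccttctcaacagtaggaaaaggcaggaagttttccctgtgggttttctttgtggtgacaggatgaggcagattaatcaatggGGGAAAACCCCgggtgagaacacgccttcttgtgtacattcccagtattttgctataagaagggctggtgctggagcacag
Ccl28: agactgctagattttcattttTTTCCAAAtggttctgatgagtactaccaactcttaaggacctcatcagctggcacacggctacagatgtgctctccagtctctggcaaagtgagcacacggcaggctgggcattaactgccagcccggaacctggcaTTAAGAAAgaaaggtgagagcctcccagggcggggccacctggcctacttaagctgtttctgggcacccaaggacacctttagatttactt
Ccl6: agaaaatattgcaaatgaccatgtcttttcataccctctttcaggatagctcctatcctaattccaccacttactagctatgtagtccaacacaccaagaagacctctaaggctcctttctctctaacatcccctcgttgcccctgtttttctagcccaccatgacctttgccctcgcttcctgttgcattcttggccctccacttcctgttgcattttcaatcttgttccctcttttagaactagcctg
Ccl9: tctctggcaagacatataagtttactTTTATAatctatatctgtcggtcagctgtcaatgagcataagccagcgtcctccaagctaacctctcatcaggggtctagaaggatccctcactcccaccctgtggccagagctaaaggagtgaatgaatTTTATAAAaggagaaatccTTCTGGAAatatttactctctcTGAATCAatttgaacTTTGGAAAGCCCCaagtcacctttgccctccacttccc

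Motifs were searched on both strands: AP-1 as TGANTCA, C/EBP as TTNNGNAA, the TATA box as TATAAA, and the NF-kB motif by name in a form of 10 letters and a form with 1 more letter in the middle. Of 32851 windows of 250 bases in the table they were present in 6.75% (AP-1), 36.8% (C/EBP), 12.4% (TATA), 7.25% (NF-kB, 10 letters) and 7.24% (NF-kB, 11 letters). The Ccl20 window held the 11-letter NF-kB motif 81 to 71 bases before the start, as GGGAAAACCCC, with a 10-letter match on the opposite strand inside it. The Ccl9 window held AP-1 53 to 47 bases before the start, C/EBP matches from 75 and from 38 bases before it, and a 10-letter NF-kB match from 35 bases before it that overlaps the latter, besides TATA matches. The Ccl28 window held 2 C/EBP matches, 229 to 222 and 91 to 84 bases before the start. The Ccl6 window held none of these motifs. It shared a run of 13 bases with that of Ccl9, gccctccacttcc, which begins 55 bases before the start of Ccl6 and 14 before that of Ccl9. A match is a description of the letters and not a measured site.

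Ccl20, the ligand of CCR6, had signals of 49.2 in untreated cells, 196.8 with IL-17A, 15.1 with FGF2 and 55.7 with both. The IL-17A array alone was over the floor, exceeding every other array by at least 2.19-fold. With both factors the signal was back under the floor, at least 2.19-fold below IL-17A alone. The order of the 3 values under the floor is not read as a difference. Ccl20 has 1 probe set, so its pattern rests on 1 value on 1 array.

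Ccl28, a mucosal chemokine known for attracting IgA plasma cells through CCR10, resembled Ccl20 in its brightest probe set. The signals there were 148.8, 268.9, 163 and 164.9, with the IL-17A array standing 1.81-fold over untreated cells and the other 3 arrays close together. The combination was 1.63-fold below IL-17A alone and 1.11-fold over untreated cells. Its other 2 probe sets were under the floor on every array, with signals from 32.1 to 57, and give no second reading. Ccl25, which guides CCR9-bearing T cells to the small intestine, was level: 193, 197.2, 205.6 and 200.5 in one probe set and 130.3, 124.3, 132.9 and 125.4 in the other. With IL-17A it was 1.02-fold over untreated cells in the first.

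Counted over the measured members, IL-17A against untreated cells gave 2 of 9 at least 2-fold higher, Ccl7 and Ccl20, against 0.375% of all measured genes. Without Ccl20, which passed the floor only on the array counted here, it was 1 of 8. At a 1.5-fold threshold Ccl2, Ccl6 and Ccl28 joined them, 5 of 9 against 1.44%, or 4 of 8 without Ccl20. None, 0 of 9, was at least 2-fold lower (0.228% of genes) or 1.5-fold lower (1.95%). The median log2 ratio was 0.85 over the 9 members, with Ccl20 at its bound, and −0.01 over all measured genes. FGF2 against untreated cells gave 0 of 9 at least 2-fold higher (0.473% of genes) and 0 lower (0.963%). At 1.5-fold these were also 0 and 0, against 2.34% and 4.82%, and the median log2 ratio was 0.09. The share of 9 genes has steps far coarser than these percentages.

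The combination against untreated cells gave 2 of 9 at least 2-fold higher, Ccl2 and Ccl7, against 0.906% of measured genes, and 0 lower (1.73%). At 1.5-fold there were 5 of 9, Ccl2, Ccl6, Ccl7, Ccl9 and Ccl11, against 3.34%, and 0 lower (6.52%). The median log2 ratio was 0.62. This comparison and those of the single factors share the untreated array. The combination against FGF2 alone gave Ccl2 and Ccl7 at least 2-fold higher (2 of 9, against 0.367%), 0 lower (0.269%), and 4 of 9 at least 1.5-fold higher with Ccl9 and Ccl11 (1.83%), with 0 lower (2.06%). The combination against IL-17A alone gave 0 higher (0.547%) and Ccl20 lower (1 of 9, against 0.857%, or 0 of 8 without it), with Ccl28 added at 1.5-fold (2 of 9, against 4.09%) and 0 of 9 at least 1.5-fold higher (2.8%). All these counts use brightest probe sets. With the combination the other Ccl6 probe set was 2.37-fold over untreated cells, 2.10-fold over FGF2 alone and 1.55-fold over IL-17A alone.

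**Figure D2:**
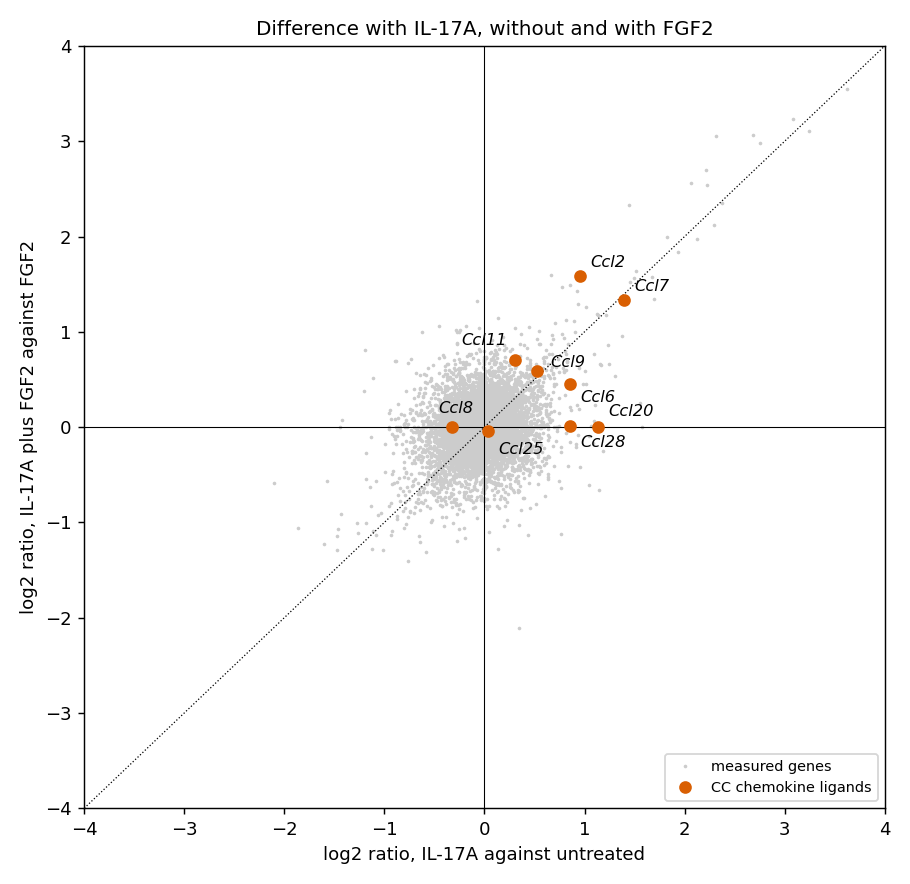
Log2 ratio of IL-17A to untreated (x axis) against log2 ratio of IL-17A plus FGF2 to FGF2 (y axis), 2 pairs of arrays that share none, for 12258 measured genes (grey) and the 9 measured CC chemokine ligands (orange), with signals under the floor raised to it; the dotted line marks equal values. Ccl7 and Ccl9 lie close to the line, Ccl2 and Ccl11 above it, and Ccl6, Ccl20 and Ccl28 below it. Each gene is shown by its brightest probe set. The other probe sets of Ccl6 (0.62 and 1.07) and Ccl9 (0.03 and 0.59) would lie above the line.

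The difference with IL-17A could be read from pairs of arrays that have none in common, once without and once with FGF2. In both pairs 6 of 9 measured members were higher with IL-17A (Ccl2, Ccl6, Ccl7, Ccl9, Ccl11 and Ccl28), against 25.8% of all measured genes, and Ccl2 and Ccl7 were at least 1.5-fold higher in both (2 of 9, against 0.579%). On the log2 scale the readings without and with FGF2 were 1.39 and 1.33 for Ccl7, apart by less than the spread between probe sets of a gene. For Ccl9 they were 0.53 and 0.59 in the brighter probe set but 0.03 and 0.59 in the other. They were 0.31 and 0.71 for Ccl11, 0.95 and 1.58 for Ccl2, 0.85 and 0.45 for Ccl6, and 0.85 and 0.02 for Ccl28. In the other Ccl6 probe set the order was reversed, with 0.62 and 1.07.

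**Figure D3:**
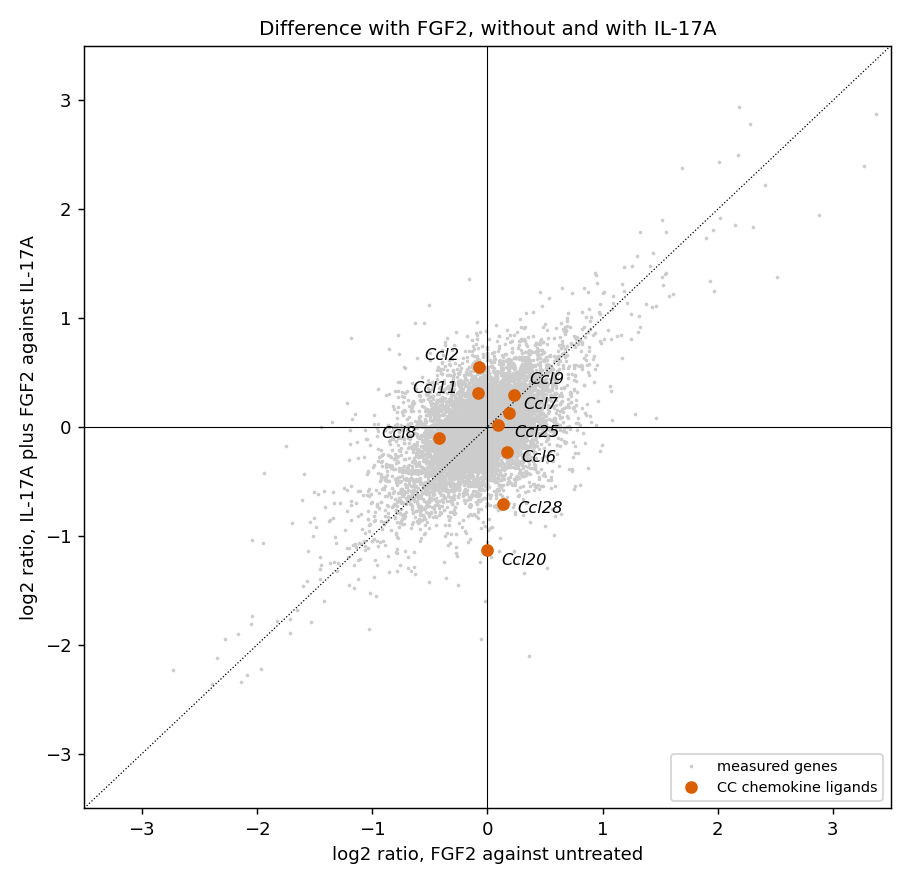
Log2 ratio of FGF2 to untreated (x axis) against log2 ratio of IL-17A plus FGF2 to IL-17A (y axis), which share no array, for 12258 measured genes (grey) and the 9 measured CC chemokine ligands (orange), with signals under the floor raised to it; the dotted line marks equal values. Ccl20 (0 and −1.13) and Ccl28 (0.13 and −0.71) lie below the other members, and Ccl2 (−0.08 and 0.55) lies highest on the y axis. Each gene is shown by its brightest probe set, and the other Ccl6 probe set (0.17 and 0.63) would lie higher.

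Whether the factors acted together, the question of the study's title, was read from the log2 interaction, the combined value minus IL-17A minus FGF2 plus untreated. Ccl2 had an interaction of 0.63. Of 1000 measured genes nearest to it in mean signal, 0.9% had one as large in either direction, and their 1st and 99th percentiles were −0.51 and 0.57. Ccl28 had −0.84 (7.51% as large among 999 genes of like signal). For Ccl20 the value of −1.13 only repeats its ratio of IL-17A to untreated with the sign turned, since its other 3 signals were all raised to the floor, and it is no separate reading of the factors together. Those of Ccl11 (0.40), Ccl6 (−0.40), Ccl8 (0.32), Ccl25 (−0.07), Ccl7 (−0.06) and Ccl9 (0.06) lay between the 1st and 99th percentiles of like-signal genes. With the mean of probe sets, Ccl6 had 0.03 and Ccl9 0.31. The Ccl28 value also lay between its percentiles, −1.12 and 1.12. These shares describe these arrays and are not tests. None of the members, 0 of 9, was at least 1.5-fold higher on the combined array than on each other array (0.326% of measured genes), with Ccl2 nearest at 1.47-fold. On the IL-17A array Ccl28 was so (1 of 8 without Ccl20, against 0.286%), as was Ccl20, which was measured through that array alone. These counts use the brightest probe set of each gene. The other Ccl6 probe set was highest on the combined array, 1.55-fold over IL-17A alone, its next highest.

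Markers of other cells were set beside these levels. The summed signal of 12 macrophage and monocyte markers was 5951 in untreated cells, 6187 with IL-17A, 6977 with FGF2 and 7585 with both. Cd14, the lipopolysaccharide co-receptor, carried the difference, with 862.3, 1318, 2640 and 3081. Without it the sums were 5089, 4869, 4337 and 4504, lowest on the FGF2 array. Such a sum follows its brightest probe sets, here Lyz2 (1554, 1214, 1258 and 1061), and 6 of the 9 other measured markers were higher with IL-17A than in untreated cells and 3 lower, with a median log2 ratio of 0.06. The 10 fibroblast markers summed to 60420, 63350, 47930 and 50470, close to each other on the untreated and IL-17A arrays, and the enterocyte markers to 22640, 11540, 17530 and 8538, lower on each array with IL-17A. The part of these cells in the chemokine levels was not tested.

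Of the 11 other CC ligands listed, 8 had a probe set with 1 symbol and 2 were measured. Ccl3 had signals of 93.9, 91.7, 74 and 123.6 and Ccl4 of 128.4, 103.8, 98 and 150.7, both highest on the combined array and neither 2-fold different from untreated cells. Ccl12, which lies between Ccl11 and Ccl8, was under the floor throughout, from 2.52 to 43.5. A further 4 probe sets carry several symbols of CC ligands and were not used. In the gene order of GRCm38.p6, Ccl2, Ccl7, Ccl11, Ccl12, Ccl8 and Ccl1 follow each other on chromosome 11 with 0 other protein-coding genes between them. Among these neighbours Ccl7 and Ccl2 had the highest ratios of IL-17A to untreated (2.63- and 1.93-fold) and Ccl11 a smaller one (1.24-fold). Ccl12 and Ccl1 were under the floor. Ccl8 was 1.25-fold lower at signals close to the floor, and in the pair with FGF2 both its signals were under it. No order along the chromosome is read from these values. Ccl5, Ccl9, Ccl6, Ccl3 and Ccl4 form a second such run, 25 protein-coding genes further on.

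**Figure D4:**
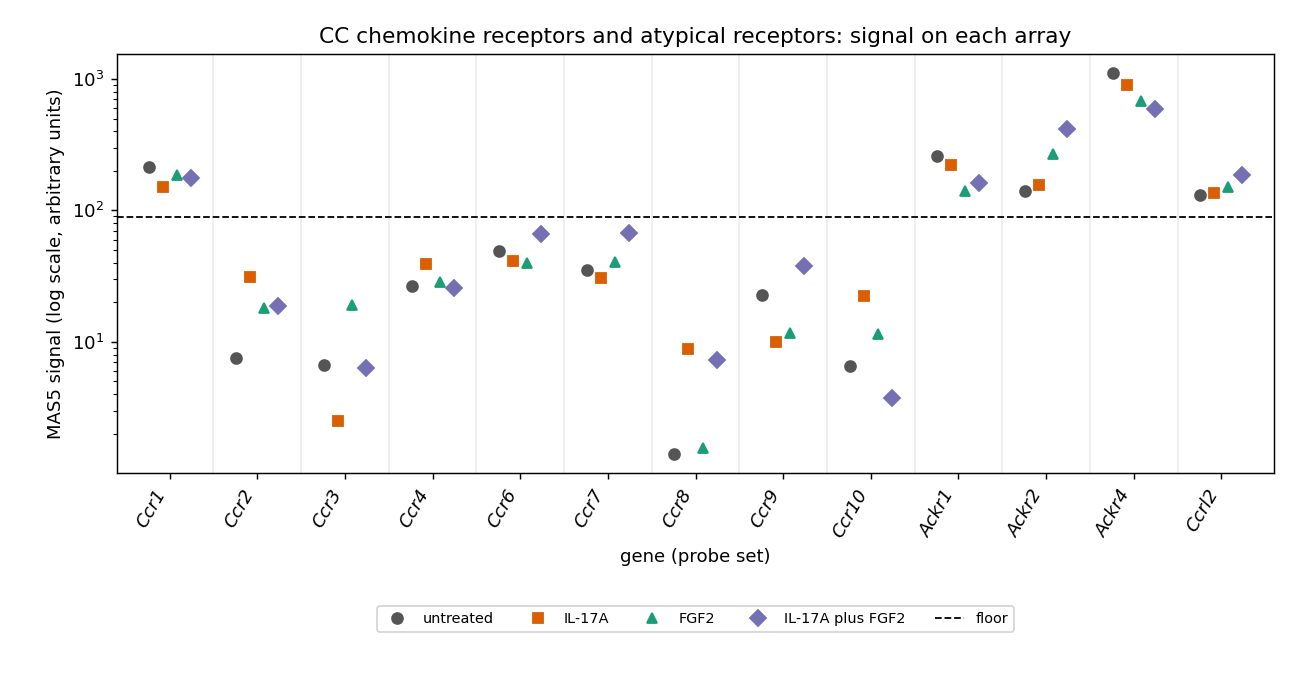
MAS5 signal (log axis, arbitrary units) of CC chemokine receptors and atypical receptors on the 4 arrays, each by its brightest probe set, with the floor of 89.8 as a dashed line. Ccr1 is the 1 signalling receptor over the floor, from 150.1 to 213.5, while the 4 atypical receptors are over it on every array.

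Of the 10 signalling CC receptors 9 had a probe set, and Ccr1, a receptor of CCL5, CCL6 and CCL9 on myeloid cells, was the 1 measured. Its signals were 213.5, 150.1, 184.8 and 177, highest in untreated cells. Ccr2, Ccr6, Ccr9 and Ccr10, the receptors of the ligands described above, were under the floor in every probe set and on every array. All 4 receptors listed as atypical were measured, of which Ackr1, Ackr2 and Ackr4 bind chemokines without steering cells. Ackr2, which takes up and degrades inflammatory CC chemokines such as CCL2, had signals of 140, 156.6, 266.9 and 416.5 and was 2.98-fold over untreated cells with both factors (1 of 4 at least 2-fold higher, against 0.906% of all measured genes). Its other 2 probe sets were under the floor on all arrays. Ackr4, a scavenger of CCL19, CCL21 and CCL25, had 1108, 898, 684.4 and 595.8, 1.86-fold below untreated cells with both factors, and Ackr1 258, 223.5, 139.9 and 162.1. A second Ackr4 probe set showed a smaller difference, with 863.3, 834.6, 640.9 and 629.6. A dimmer one had 139.9, 124, 112.3 and 50.6, the last under the floor. Ccrl2 had 130.2, 136.3, 150.6 and 185.2, the combined array being the highest.

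Among 16 regulators of chemokine transcription and mRNA stability, 15 were measured. With IL-17A 2 of 15 were at least 2-fold over untreated cells (0.375% of all measured genes) and 0 lower (0.228%). These were Nfkbiz, a nuclear cofactor of NF-kB, with 1901, 5447, 1794 and 5565, and Zc3h12a, a ribonuclease that degrades cytokine mRNAs, with 204, 1013, 191.8 and 1595. Both followed IL-17A, as Ccl2 and Ccl7 did, and Zc3h12a stood highest on the combined array. Of the 3 Nfkbiz probe sets another agreed in direction (262.5, 812.8, 361.2 and 712.7) and 1 was lower with IL-17A (591, 463.2, 597.7 and 498.2). Tnfaip3, which restrains NF-kB signalling, had 1449, 2532, 1454 and 2529, under 2-fold. Its second probe set had 77.8, 159.7, 101.9 and 115.2. The second probe set of Zc3h12a was over the floor on the combined array only. With FGF2 alone 0 of 15 were at least 2-fold higher (0.473% of all) and 0 lower (0.963%).

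The genes most like 3 members in pattern were found by the distance between log2 signals on the 4 arrays, each centred on its gene's mean, among 391 measured genes that were at least 2-fold different from untreated cells on an array. Nearest to Ccl2 were Csf3 (distance 0.32; signals 98.1, 213.5, 122.8 and 280.4), Tnf (0.34) and Cxcl3 (0.41). Nearest to Ccl7 were Tnf (0.20; signals 42.7, 209, 109.8 and 248.7), Plet1 (0.25; 2413, 6783, 2315 and 6827) and Noxo1 (0.27; 552.1, 1784, 621.4 and 1583). Nearest to Ccl20 were the clone gene 4833447I15Rik (0.07; 80.8, 187.2, 68.1 and 90.3), Wfdc12 (0.09; 93.7, 211.9, 22.5 and 62.1) and Kbtbd13 (0.39; 132.6, 283.8, 167.2 and 175.3). With the 4 arrays as the only points and floored signals among them, such likeness is a description.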

How the data were processed

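Biotin-labelled cRNA from 4 samples, 1 per group, was hybridised to Affymetrix mouse arrays after 3′ IVT labelling, per the labels' protocols. The authors summarised each probe set with MAS5, per the submitters' processing notes (no version is named), and deposited log2 signals. The method subtracts mismatch signal, which makes dim values noisy. After antilog, every array had a 2% trimmed mean of 500, as scaling to a common target gives. Detection calls were not analysed here.

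The 64 control probe sets were left out. Symbols came from the platform annotation (all 10 members matched GRCm38.p6 by Entrez identifier). A gene was read from its brightest probe set (mean log2 over the arrays). Signals under the median of all (89.8) were raised to it for ratios, and a fold from a raised signal is given as "at least". Called means at least 2-fold. With 1 array per group the number of arrays limits the precision. All members were named, other lists by rule: receptors over the floor, and genes at least 2-fold different. Some list members under 2-fold (Ccl3, Ccl4, Ccl12, Tnfaip3 and the markers) were named after their values were seen. The members and lists were chosen with earlier results of these data known. The enterocyte, fibroblast and other marker sums use 1 probe set per gene. Ratios were tested on simulated data with known differences only in genes brighter than the members, so ratios of dim or floored signals were not tested. Floors at the 25th and 75th percentiles, an added floor, quantile normalization, the mean of probe sets, omission of related-transcript probe sets and thresholds of 1.5- and 3-fold were the alternatives. Python 3.11.15, numpy 2.4.6, pandas 2.3.3 and matplotlib 3.10.9 were used.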

Additional observations from a re-analysis of the deposited data

Results flagged for a closer look

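The effect of 1 factor, read once without and once with the other, went opposite ways for 5 members, each reading being 1 pair of arrays, and the differences were not tested. The share of all measured genes that did so was not counted, so the number is not read as a trait of the members. For FGF2 they were Ccl2 (log2 −0.08 without IL-17A and 0.55 with it, a difference of 0.63), Ccl6 (0.17 and −0.22, a difference of −0.40), Ccl11 (−0.08 and 0.31, a difference of 0.40) and Ccl28 (0.13 and −0.71, a difference of −0.84). For IL-17A it was Ccl25 (0.03 without FGF2 and −0.04 with it, a difference of −0.0674). The Ccl6 reading came from its brighter probe set, and its other probe set was higher with FGF2 in both pairs. The other Ccl25 probe set was lower with IL-17A in both pairs (−0.07 and −0.08). Ccl9 was higher with FGF2 in both pairs in its brighter probe set. Its other probe set went opposite ways (−0.13 without IL-17A and 0.43 with it). The readings of Ccl25 and of the brighter Ccl6 probe set are all smaller than the spread between probe sets of a gene. So are those of Ccl2, Ccl11 and Ccl28 without IL-17A. For none of the 5 members do both readings pass that spread.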

How the results depend on the processing

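No paired analysis was possible because each group has 1 array, and leaving out a replicate was not possible for the same reason. Under quantile normalization the counts of members at least 2-fold higher or lower matched the main counts in all 5 comparisons. So did the count of 0 highest on the combined array. Omission of related-transcript probe sets could not change these counts, since the only such member probe set, of Ccl6, was not its brightest. With a floor raised to the 75th percentile, the members at least 2-fold higher were 0 for IL-17A against untreated cells, and 1 (Ccl2) both for the combination against untreated cells and against FGF2, Ccl7 then being near the floor and Ccl20 under it on every array. Members lower for the combination against IL-17A were 0 with that floor and with the floor added. Without Ccl20, an alternative chosen after seeing the data, the higher members with IL-17A were 1 and the lower for the combination against IL-17A were 0. With a threshold of 1.5-fold the higher members were 5 (IL-17A), 5 (combination against untreated) and 4 (against FGF2) and the lower 2 (against IL-17A), and with 3-fold all of these were 0. Of 54 single ratios and interactions per setting, 7 counted as moved with the floor added and 4 with the lower (25th percentile) floor. Ratios counted where they changed by more than the spread between probe sets, interactions only for larger changes. The Ccl6 interaction, −0.40 in the main reading and 0.03 with the mean of probe sets, was not counted. Neither was that of Ccl28, −0.84 in the main reading and −0.58 with the floor added. With the higher floor 4 of 30 moved, and with the mean of probe sets 4 of 48. With that mean, Ccl6 on the combined array was 0.20 (log2) over IL-17A alone instead of 0.22 below it. The Ccl20 difference between the combination and IL-17A alone was −1.82 (log2) with the lower floor, where FGF2 against untreated cells was −0.80, and its interaction was −0.57 with the floor added. Ccl7 with IL-17A was 1.07 (log2) over untreated cells with the floor added and 0.10 with the higher floor. Signals near the floor (Ccl5, Ccl8, Ccl20) limit what can be read.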
